A study of Mus musculus with 48 samples.

Results

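Keratins are the intermediate filament proteins of epithelial cells, and 8 keratin genes (Krt7, Krt8, Krt14, Krt17, Krt18, Krt19, Krt20 and Krt23) were followed here through 13 sorted cell populations of the mouse pancreas. They were taken by name, each by the array probe that carries that gene alone and had the highest mean over all arrays, and make up 8 of the 18194 genes that have a probe of their own. A type I keratin pairs with a type II keratin to form a filament. Krt7 and Krt8 are type II and the others are type I. Krt8 and Krt18 form the basic filament pair of simple epithelia, to which Krt19 and Krt7 are added in ducts, whereas Krt14 and Krt17 are known from basal cells of layered epithelia, hair follicles and injured skin, and Krt20 from the gut and urothelium. In the adult pancreas, duct cells are the classic keratin-rich cells, and keratin filaments are anchored at desmosomes.

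The study followed pancreatic cells from fetal progenitors to acinar, endocrine and duct cells, with 48 Affymetrix mouse expression arrays on CD-1 mice. The populations are named here as in the labels, with decimals for the fetal days and P0 where the study's text writes whole days and P1. E11.5 Sox9 cells (n = 4) carried a Sox9-eGFP reporter, and E15.5 Progenitor cells (n = 3) and E15.5 Acinar cells (n = 3) were sorted from pooled fetal pancreata of reporter mice with surface antigens. E15.5 Endocrine Progenitor cells (n = 3) came from Neurog3-eGFP transgenic pancreata, where the long-lived fluorophore also marks hormone-positive descendants, so that CD133 and CD49f were used to gate. E15.5 Neurog3-null cells (n = 4), the single mutant population, were GFP-positive cells of homozygous eGFP knock-in embryos that lack Neurog3, the factor that starts endocrine differentiation, and their titles drop a digit of the day that the stage field gives as E15.5. Beta Cells at E15.5 (n = 4), E17.5 (n = 3), P0 (n = 3), P15 (n = 4) and 8-12wk (n = 4) carried GFP driven by the mouse insulin promoter. Alpha Cells at P0 (n = 4) and 8-12wk (n = 5) carried Venus driven by the glucagon promoter, and 8-12wk Duct Cells (n = 4) were sorted for CD133 with CD45 and Ter119 excluded. Adult beta and alpha cells came from males, and fetal samples were pools of many pancreata. All populations but the Neurog3-null cells were wild type apart from reporters.

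The values are log2 levels made by RMA, which subtracts background, forces a common distribution on the arrays and summarises the oligonucleotides of each probe. A level of 100 on the linear scale, or 6.64 on the log2 scale, was taken as the floor from the study's methods. Here 32078 of 45101 probes exceeded it in at least 1 array, a set that is not the one the study tested, among them the chosen probes of all 8 keratins. Below that floor, differences in size are not exact. A difference between 2 populations was called at an adjusted p under 0.05 (limma, Benjamini-Hochberg over the 32078 probes) with a log2 difference of at least 1, and errors given after a difference are standard errors of that fit. The number of arrays limits the precision, and the labels do not say whether arrays with different numbers came from different animals, although the design text speaks of biological triplicates.

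Markers of other cells were present in several populations. The mean log2 level of 15 macrophage and leukocyte markers lay between 10.79 and 11.65 in the Neurog3-null arrays, between 10.67 and 11.42 in the 8-12wk Beta Cell arrays and between 10.82 and 11.81 in the 8-12wk Duct Cell arrays, against 5.57 to 6.17 in the E15.5 Progenitor arrays. The mean of 8 mesothelial markers lay between 7.56 and 9.75 at E17.5 and between 7.84 and 8.75 at P0 in Beta Cells, against 5.73 to 5.96 at P15. Replicates 1 and 2 of the 8-12wk Alpha Cells had acinar marker means of 11.76 and 12.02, and the other 3 arrays lay between 7.44 and 8.35. The labels were checked against defining genes. Cpa1, an acinar enzyme gene, was at 14.08 in E15.5 Acinar cells. Its Duct Cell arrays (13.78 to 14.14) covered the Acinar range (14.02 to 14.11), so Cpa1 did not set Acinar apart from Duct Cells. Cpa1 was also at 13.82 in Neurog3-null cells and 13.39 in 8-12wk Beta Cells. Cftr had its highest mean, 12.13, in Duct Cells, with 10.96 in 8-12wk and 10.08 in P15 Beta Cells. The hormone genes Gcg (glucagon, at 13.75 or more in the mean of every Beta Cell stage) and Ins2 (insulin, at 13.91 or more in both Alpha Cell populations) were high in both endocrine types. The study's text says that such abundant hormone mRNAs may saturate array probes and that they were measured by quantitative PCR. The mean of 6 beta cell markers was 13.36 in 8-12wk Beta and 10.77 in 8-12wk Alpha Cells, and that of 4 alpha cell markers 10.34 and 12.01, in the direction of the labels.

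The 8 keratins differed in the number of arrays above the floor. Krt7, Krt8 and Krt18 exceeded the floor in 48 of 48 arrays and Krt19 in 45. Krt23 exceeded it in 28 arrays, Krt20 in 13, Krt17 in 9 and Krt14 in 3. The 13 population means of Krt17 spanned 9.10 on the log2 scale, a span larger than that of 99.9% of all probes tested. Those of Krt23 spanned 8.02 and of Krt19 6.92. The Krt17 results here and below rest on the brighter of its 2 probes. The other never exceeded the floor (highest value 4.72), with means of 4.57 in Duct Cells, 4.01 in 8-12wk Beta Cells and 3.72 in P15 Beta Cells. Krt7 spanned 2.99, Krt20 2.31, Krt18 1.78, Krt14 1.72 and Krt8 1.56, around the median of 1.99 over all probes. Of the 78 pairs of populations, 51 were called for Krt23, 41 for Krt17, 30 for Krt19, 22 for Krt7, 21 for Krt20, 12 for Krt18, 11 for Krt14 and 9 for Krt8. Over all probes and pairs 27.1% were called, with a median of 18 pairs a probe. The 8-12wk Duct Cells had the highest mean of Krt8, Krt17, Krt18, Krt19 and Krt23, whereas Krt7 was highest in E15.5 Endocrine Progenitors, Krt14 in P0 Beta Cells and Krt20 in E11.5 Sox9 cells.

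**Figure D1:**
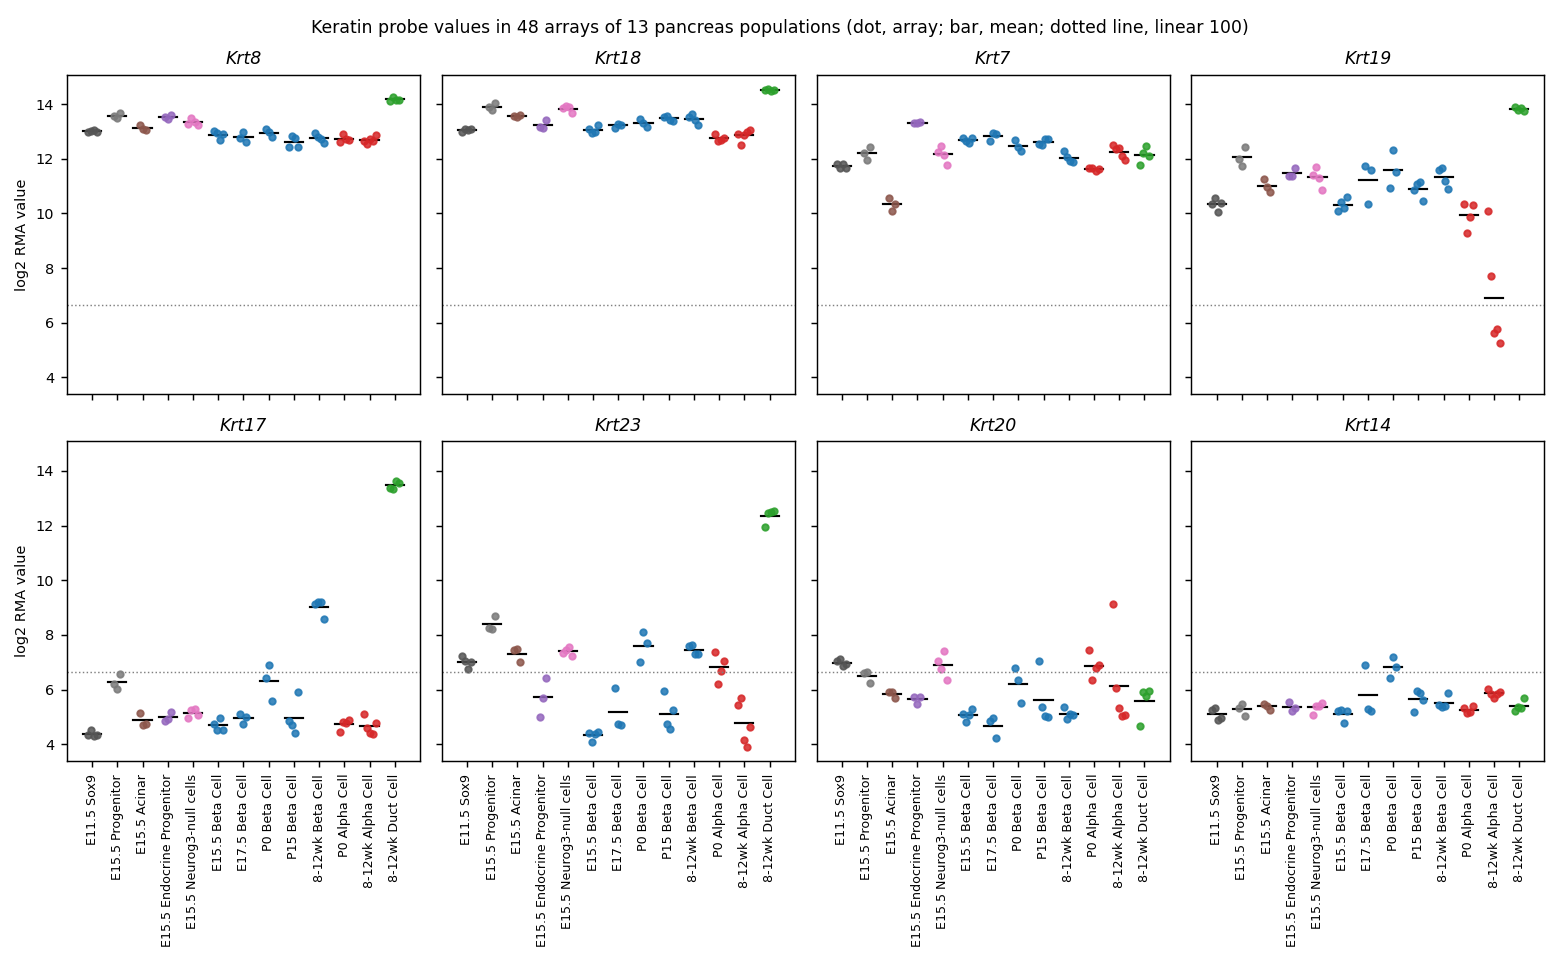
Log2 RMA value (vertical axis) of the 8 keratins in each of 13 populations (horizontal axis), with 1 dot per array, a bar at the population mean and a dotted line at 100 on the linear scale (6.64). Krt8, Krt18 and Krt7 lie above the line in every array, and the Duct Cell arrays stand highest for 5 of the 8 genes.

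Krt8 and Krt18, the partners of the simple epithelial filament, changed mainly at the Duct Cells. In the Duct Cells Krt8 measured 14.13, 14.26, 14.16 and 14.14 and Krt18 measured 14.52, 14.55, 14.48 and 14.52, each above every other array of the series. All 9 called pairs of Krt8 set the Duct Cells against another population, so that with its brightest probe no 2 of the other 12 populations differed by the call rule. Of the 12 called pairs of Krt18, 9 involved the Duct Cells, and the other 3 set the E15.5 Progenitors and Neurog3-null cells above Alpha Cells. Among the endocrine cells, Krt18 was lower in 8-12wk Alpha than in 8-12wk Beta Cells by 0.58 ± 0.10 on the log2 scale (adjusted p = 4.98e-06), under the size needed for a call, whereas the difference of Krt8 was -0.08 ± 0.10 (adjusted p = 0.512). From the E15.5 Progenitors to the Endocrine Progenitors Krt18 differed by -0.68 ± 0.12 (adjusted p = 1.10e-05) and Krt8 by -0.03 ± 0.12 (adjusted p = 0.870). Krt8 has 3 probes, and the second brightest gave the same calls as the brightest in the 18 comparisons. By the third, the E15.5 Progenitors had a mean of 13.52 and the 8-12wk Alpha Cells 12.34, and pairs were not tested with that probe.

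In the RefSeq table of assembly GRCm38.p6, Krt7, Krt8 and Krt18 lie on chromosome 15 and the other 5 on chromosome 11. Only 2 annotated genes, neither protein-coding, lie between Krt8 and Krt18, which is the one type I gene beside the type II cluster, and no gene lies between Krt20 and Krt23. Over the 13 population means, which share arrays and normalization, Pearson's r was 0.79 for Krt8 and Krt18 and 0.22 for the neighbours Krt20 and Krt23. Krt17 and Krt23 had the highest r of any 2 members (0.83), and Krt7 had r between -0.36 and 0.22 with the others. RefSeq promoters of the same assembly were at hand for 6 of the 8 genes. The 150 bases before the start are printed for the neighbours Krt8 and Krt18, for Krt7, whose levels followed neither of them, and for Krt23, which was high in the Duct Cells, each 5′ to 3′ along its gene. Capitals mark matches, on either strand, to the TATA box TATAAA, the GC box GGGCGG, the E-box CACCTG or the AP-1 site TGANTCA.
Krt8 (GRCm38.p6 chr15:102004343-102004492, minus strand): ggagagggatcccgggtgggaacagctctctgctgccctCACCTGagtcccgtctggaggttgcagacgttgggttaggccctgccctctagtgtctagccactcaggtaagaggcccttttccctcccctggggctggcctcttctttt
Krt18 (GRCm38.p6 chr15:102028066-102028215, plus strand): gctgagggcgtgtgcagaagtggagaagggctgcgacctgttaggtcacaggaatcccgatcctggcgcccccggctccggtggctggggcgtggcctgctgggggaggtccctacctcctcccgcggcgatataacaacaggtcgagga
Krt7 (GRCm38.p6 chr15:101412253-101412402, plus strand): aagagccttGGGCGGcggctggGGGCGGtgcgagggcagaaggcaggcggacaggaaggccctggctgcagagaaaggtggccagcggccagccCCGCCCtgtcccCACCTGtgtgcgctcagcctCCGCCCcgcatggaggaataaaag
Krt23 (GRCm38.p6 chr11:99493121-99493270, minus strand): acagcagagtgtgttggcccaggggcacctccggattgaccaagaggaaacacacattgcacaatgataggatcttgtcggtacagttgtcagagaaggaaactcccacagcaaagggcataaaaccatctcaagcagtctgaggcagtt
Krt7 held 4 GC boxes, present at least once in 32.7% of 32851 promoters of the same length (250 bases before the start), and an E-box, present in 17.2%. Krt8 held 1 E-box in the stretch shown, and Krt18 and Krt23 each held 1 farther out, 214 to 209 and 232 to 227 bases before the start. None of the 4 had a TATAAA (in 12.4% of promoters) or a TGANTCA (in 6.75%) within the 250 bases searched. Such matches describe the letters alone.

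From E11.5 Sox9 cells to E15.5 Progenitors, the earlier and the later progenitor population, 3 of the 8 keratins were called higher and none lower. Of all probes tested 11.3% were called (4.95% higher and 6.37% lower). Krt17 measured 4.35, 4.52, 4.29 and 4.34 at E11.5 and 6.19, 6.03 and 6.56 at E15.5, a rise of 1.88 ± 0.24 (adjusted p = 6.03e-08). Both groups lay under the floor but did not overlap. Krt19, the duct keratin, measured 10.35, 10.55, 10.06 and 10.38 and then 11.99, 11.72 and 12.44, a rise of 1.71 ± 0.57 (adjusted p = 0.0229). Krt23 measured 7.21, 7.05, 6.76 and 7.01 and then 8.25, 8.22 and 8.69, a rise of 1.38 ± 0.35 (adjusted p = 0.00314). All 3 genes were thus higher in every E15.5 array than in any E11.5 array. Under the size needed for a call, Krt18 was higher by 0.87 ± 0.11 (adjusted p = 5.86e-08). Krt8 was higher by 0.56 ± 0.11 (adjusted p = 1.27e-04) and Krt7 by 0.46 ± 0.15 (adjusted p = 0.0225), also under that size. The call of Krt19 was lost without E11.5 Sox9 replicate 3 or without E15.5 Progenitor replicate 1 or 3, with adjusted p between 0.0557 and 0.0963. Of 12 duct markers other than keratins 7 were also higher, among them Aqp1, a water channel, by 3.87 and Cftr, the chloride channel, by 2.83. The 1 called lower, Onecut2, had the largest difference of that list, at -4.05. Acinar marker means also differed, from 8.69 to 9.14 at E11.5 and from 10.70 to 12.44 at E15.5, and their part in the keratin values was not tested. Fewer cells of a type and less RNA per cell cannot be told apart in such bulk arrays, here and below. The E11.5 arrays also held alpha cell markers, with a mean over 4 genes of 12.03 against 8.05 at E15.5.

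At E15.5, Krt7 was low in the acinar and high in the endocrine branch. It measured 12.22, 11.95 and 12.42 in the Progenitors, 10.57, 10.07 and 10.36 in the Acinar cells and 13.32, 13.31 and 13.33 in the Endocrine Progenitors, with no overlap between any 2 of these groups. The Acinar cells were lower than the Progenitors by 1.86 ± 0.16 (adjusted p = 3.37e-11) and lower by the call rule than each of the other 12 populations. The Endocrine Progenitors were higher than the Progenitors by 1.12 ± 0.16 (adjusted p = 4.43e-07), and 8 of their 12 pairs were called. In the order of the means, they stood above the next population, the E17.5 Beta Cells, by 0.50 ± 0.16 (adjusted p = 0.0160).

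From Progenitors to Acinar cells, Krt17 and Krt23 were also lower, so that 3 of 8 keratins fell, where 9.9% of all probes were called (4.07% higher and 5.82% lower). Krt17 measured 5.16, 4.71 and 4.74 in the Acinar cells and fell by 1.39 ± 0.26 (adjusted p = 7.96e-05). Krt23 measured 7.44, 7.49 and 7.01 and fell by 1.07 ± 0.38 (adjusted p = 0.0396). The Krt23 call was lost when any 1 of the 6 arrays was left out (adjusted p between 0.0548 and 0.160) and by the methods' t-test (adjusted p = 0.0574). The Acinar arrays carried endothelial markers, with means from 8.61 to 9.68 against 5.14 to 5.60 in the Progenitors, whose part in these values was not tested. From Progenitors to Endocrine Progenitors, beside the rise of Krt7, Krt17 fell by 1.28 ± 0.26 (adjusted p = 9.40e-05) to 4.84, 4.93 and 5.17, and Krt23 fell by 2.68 ± 0.38 (adjusted p = 2.92e-07) to 4.98, 5.71 and 6.44. Thus 3 of 8 keratins were called on this step, where 19.2% of all probes were called (9.06% higher and 10.1% lower). Nefm, a neurofilament subunit, rose by 4.70 and Nes, the progenitor filament nestin, fell by 3.12 on the same step, so that 4 of 12 other intermediate filament genes were called.

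Neurog3-null cells were set against the Endocrine Progenitors, to ask which levels depend on Neurog3, and against the Progenitors. Neurog3 itself lay between 10.29 and 10.97 in the null arrays and between 13.34 and 13.44 in the Endocrine Progenitor arrays, so its probe still gave signal in the mutant, and whether that probe lies in the replaced part is not given in the sources used here. Compared with the Endocrine Progenitors, Krt7 was lower, at 12.26, 12.48, 12.14 and 11.78, by 1.16 ± 0.15 (adjusted p = 3.85e-08). Krt23 was higher, at 7.34, 7.44, 7.57 and 7.23, by 1.69 ± 0.35 (adjusted p = 1.10e-04), with no overlap between the groups for either gene. Krt20, the gut keratin, measured 7.04, 6.75, 7.41 and 6.34 in the null cells and 5.73, 5.47 and 5.72 in the Endocrine Progenitors, higher by 1.24 ± 0.54 (adjusted p = 0.0469), but this call was lost without any 1 array other than Neurog3-null replicate 4 (adjusted p between 0.0619 and 0.117). These are 3 of 8 keratins, where 31.1% of all probes were called (14.7% higher and 16.4% lower). Compared with the Progenitors, Krt7 differed by -0.03 and Krt8 by -0.23 on the log2 scale, neither past the test. Krt17 alone was called, lower by 1.11 ± 0.24 (adjusted p = 3.16e-04) at 4.96, 5.27, 5.31 and 5.07, where 18% of all probes were called (7.62% higher and 10.4% lower). Without E15.5 Progenitor replicate 3 that difference was -0.96, and Krt23, at -0.99 (adjusted p = 0.0236), lay just under the size limit. The null arrays held the macrophage and leukocyte markers given above. Against the Endocrine Progenitor arrays they were also higher in 9 of 13 acinar markers (median difference 2.57, with array means of 11.70 to 12.63 against 8.83 to 11.02) and in 6 of 12 duct markers, and the part of these lists in the keratin values was not tested.

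**Figure D2:**
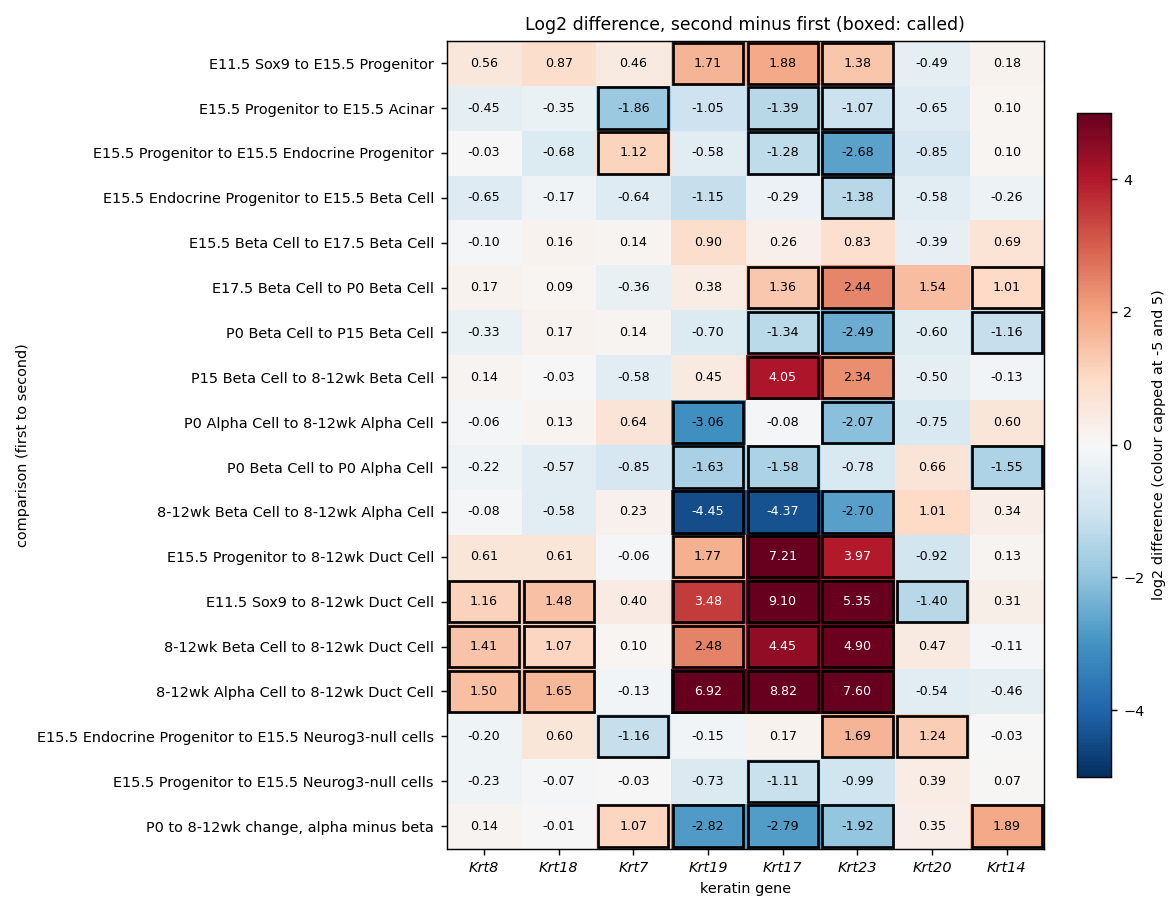
Log2 difference, second population minus first, of the 8 keratins (columns) in the 18 comparisons (rows), the last being the difference between the changes of alpha and beta cells from P0 to 8-12wk; boxes mark called differences. Krt17, Krt19 and Krt23 hold most of the boxes, and Krt8 and Krt18 are boxed only in rows that end in Duct Cells.

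Along the beta cell stages, Krt17 and Krt23 rose to P0, fell to P15 and rose again to 8-12wk. Krt19 was called at none of the 5 steps that lead from the Endocrine Progenitors to 8-12wk. Its errors rest on a spread shared with the 8-12wk Alpha Cells (SD 2.03). Between Endocrine Progenitors and E15.5 Beta Cells Krt19 differed by -1.15 ± 0.57 (adjusted p = 0.155) with no overlap of arrays. From the Endocrine Progenitors to the E15.5 Beta Cells 1 keratin was called, where 9.43% of all probes were (5.62% higher and 3.8% lower), as Krt23 fell by 1.38 ± 0.35 (adjusted p = 0.00366) to 4.42, 4.10, 4.37 and 4.45. Without E15.5 Endocrine Progenitor replicate 3 the adjusted p was 0.0672, and by the methods' t-test over all arrays it was 0.0549. That array had an acinar marker mean of 11.02 against 8.83 and 9.49 in the other two. From E15.5 to E17.5 limma called 0 of 8 keratins, where 9.8% of all probes were called (7.29% higher and 2.5% lower). The methods' t-test called 0 as well. In limma 2 had an unadjusted p under 0.05, Krt14 and Krt23. Krt14 differed by 0.69 ± 0.24 (adjusted p = 0.0288), under the size needed for a call and with overlapping arrays. Krt23 differed by 0.83 ± 0.35 (adjusted p = 0.0851).

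From E17.5 to P0, 3 keratins were higher, where 6.21% of all probes were called (3.81% higher and 2.4% lower). Acinar markers rose with them, 8 of 13 being called (median difference 2.61), as did 4 of 12 duct markers, and their part was not tested. Krt23 measured 6.06, 4.75 and 4.70 at E17.5 and 7.02, 8.12 and 7.69 at P0, a rise of 2.44 ± 0.38 (adjusted p = 3.09e-05). Krt17 measured 5.12, 4.72 and 5.01 and then 6.43, 6.91 and 5.60, a rise of 1.36 ± 0.26 (adjusted p = 3.88e-04). Neither gene overlapped between the stages. Krt14, the basal cell keratin, measured 6.89, 5.29 and 5.23 and then 6.42, 7.19 and 6.83, a difference of 1.01 ± 0.25 (adjusted p = 0.00607) with overlapping arrays, and its call was lost without E17.5 replicate 2 or 3 or P0 replicate 2 or 3. By the methods' t-test none of the 3 was called, with adjusted p of 0.126 for Krt23, 0.170 for Krt17 and 0.370 for Krt14, and with limma fitted on the 2 stages alone Krt17 (adjusted p = 0.0626) and Krt14 (adjusted p = 0.221) were not called.

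From P0 to P15 the same 3 keratins, Krt14, Krt17 and Krt23, were lower, where 25.5% of all probes were called (11% higher and 14.5% lower). Krt23 fell by 2.49 ± 0.35 (adjusted p = 2.39e-07) to 5.95, 4.74, 4.54 and 5.24. Krt17 fell by 1.34 ± 0.24 (adjusted p = 1.47e-05) to 4.85, 4.72, 4.42 and 5.90, where the last array reaches into the P0 range, and by the methods' t-test its adjusted p was 0.0954. Krt14 fell by 1.16 ± 0.24 (adjusted p = 8.45e-05) to 5.16, 5.93, 5.87 and 5.63, and by 0.97 without P0 replicate 2. Markers of other cells moved with these genes. Of the mesothelial marker means given above, the highest (9.75) was that of E17.5 replicate 1, the array with the highest Krt14 of its stage. Mesenchyme and stellate marker means lay between 11.05 and 11.95 at E17.5 and P0 and between 5.34 and 7.14 at P15, and 12 of 12 endothelial markers, 12 of 14 macrophage and leukocyte markers and 8 of 12 duct markers fell from P0 to P15, among the last Aqp1 (-5.79) and Sox9 (-3.18). The part of these lists in the keratin values was not tested. The Krt14 probe is of a kind whose oligonucleotides can match other transcripts. Neither of the other probes of Krt14 exceeded the floor in any array. One had its highest mean in the P0 Beta Cells as well (5.82), and the other, the brighter of these, had its lowest mean there (4.65).

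From P15 to 8-12wk Krt17 showed its step within the beta cells, from all 4 arrays under the floor to all 4 above it. It measured 9.12, 9.20, 9.19 and 8.58 in the adult, a rise of 4.05 ± 0.22 (adjusted p = 5.43e-17), and Krt23 measured 7.58, 7.64, 7.30 and 7.31, a rise of 2.34 ± 0.33 (adjusted p = 6.27e-07). These 2 of 8 keratins, where 7.81% of all probes were called (6.23% higher and 1.58% lower), were called without any 1 of the 8 arrays too. Krt19 differed by 0.45 and Krt7 by -0.58, neither called. Duct marker means moved in the same direction, from 8.51, 7.20, 7.14 and 7.19 at P15 to 9.26, 9.26, 9.24 and 8.69, with 7 of 12 duct markers higher and none lower, Sox9 by 3.18 and Muc1, a mucin of the duct surface, by 2.75. Macrophage and leukocyte marker means went from between 6.71 and 8.97 to between 10.67 and 11.42. Acinar marker means lay between 10.28 and 12.94 at P15 and between 12.11 and 12.89 at 8-12wk. Replicate 4 of the adult Beta Cells had both the lowest Krt17 and the lowest duct marker mean of its group, and the part of these cells in the rise was not tested.

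**Figure D3:**
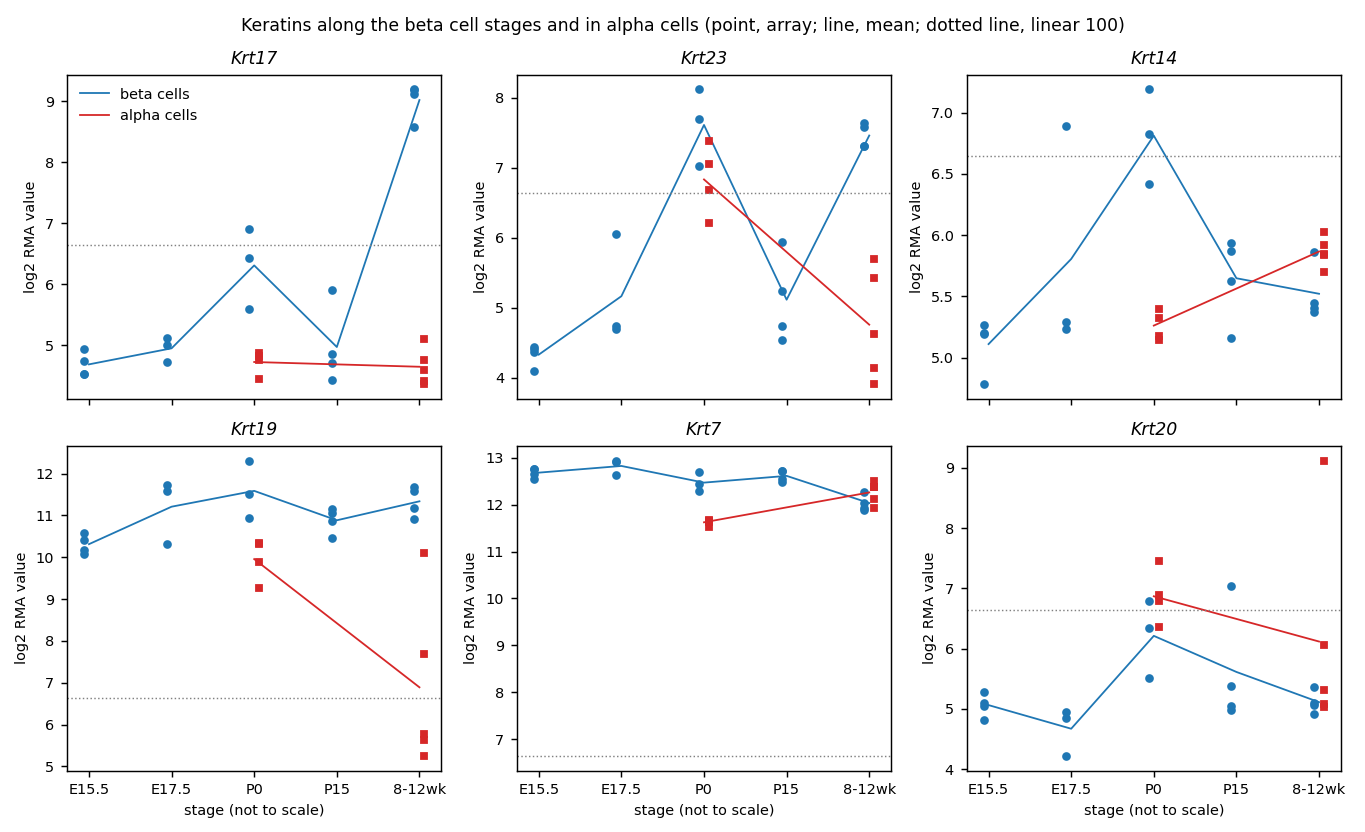
Log2 RMA values of 6 keratins in Beta Cells (blue circles) at 5 stages and in Alpha Cells (red squares) at P0 and 8-12wk; lines join the means, the stages are not spaced to scale, the vertical axes differ, and the dotted line marks 100 on the linear scale. Krt17 lies between 8.58 and 9.20 in 8-12wk Beta Cells and at 5.10 or less in every Alpha Cell array.

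Alpha cells were set against beta cells at both ages. At P0, 3 of 8 keratins were lower in Alpha Cells, where 19.8% of all probes were called (7.99% higher and 11.8% lower). Krt17 was lower by 1.58 ± 0.24 (adjusted p = 1.20e-06) at 4.45, 4.82, 4.76 and 4.87, and Krt14 by 1.55 ± 0.24 (adjusted p = 1.25e-06) at 5.33, 5.15, 5.18 and 5.40. Krt19 was lower by 1.63 ± 0.57 (adjusted p = 0.0180), at 10.35, 9.28, 9.88 and 10.32 against 10.94, 12.31 and 11.51, and lost its call without P0 Beta Cell replicate 2 (adjusted p = 0.118) or P0 Alpha Cell replicate 2 (adjusted p = 0.0612). Lower in the P0 Alpha Cells too were 13 of 14 macrophage and leukocyte markers (median difference -2.38), 7 of 8 mesothelial markers (median -2.59), 9 of 12 mesenchyme and stellate markers and 8 of 12 endothelial markers, whose part in these values was not tested. In the adult, 3 of 8 were lower in Alpha Cells, where 17.3% of all probes were called (6.23% higher and 11% lower). The differences were -4.45 ± 0.50 for Krt19 (adjusted p = 1.70e-09), -4.37 ± 0.21 for Krt17 (adjusted p = 1.73e-19) and -2.70 ± 0.31 for Krt23 (adjusted p = 3.13e-09). Markers of other cells were lower in the adult Alpha Cells as well, with 14 of 14 tested macrophage and leukocyte markers (median difference -5.98), 11 of 13 acinar markers (median -3.65) and 6 of 12 duct markers (median -1.45) called lower, and their part in the keratin values was not tested.

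From P0 to 8-12wk 2 of 8 keratins fell in Alpha Cells, where 20.8% of all probes were called (7.7% higher and 13.1% lower). Krt19 measured 10.10, 7.70, 5.62, 5.78 and 5.26 in the adult and fell by 3.06 ± 0.50 (adjusted p = 2.80e-06). Krt23 measured 5.42, 5.69, 4.14, 3.91 and 4.63 and fell by 2.07 ± 0.31 (adjusted p = 6.44e-07). Krt20 measured 7.45, 6.35, 6.79 and 6.89 at P0 and 9.12, 6.06, 5.31, 5.03 and 5.08 in the adult, a difference of -0.75 ± 0.47 (adjusted p = 0.179). For Krt19, Krt20 and Krt23 the adult arrays with the highest values were replicates 1 and 2, those with acinar marker means of 11.76 and 12.02. Without these 2 arrays, left out after the values were seen, Krt19 fell by 4.40 ± 0.28 (adjusted p = 2.16e-15), Krt23 by 2.60 ± 0.31 (adjusted p = 1.03e-08) and Krt20 by 1.73 ± 0.33 (adjusted p = 5.00e-05). Krt19 then lay under the floor in each of the 3 adult arrays, and its difference from 8-12wk Beta Cells was -5.78 ± 0.28 (adjusted p = 1.26e-18). At P0 the Alpha Cell arrays held mesenchyme and stellate markers (means of 9.84 or more, against 5.32 to 5.66 in the adult), and all 12 of them fell. With Krt19 and Krt23 there also fell 12 of 12 endothelial, 9 of 14 macrophage and leukocyte and 9 of 12 duct markers (median difference of the duct list -2.59), among the last Sox9 (-4.30) and Muc1 (-3.36), and the part of these lists was not tested. By the methods' t-test over all 5 adult arrays, the fall of Krt19 had an adjusted p of 0.0595.

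**Figure D4:**
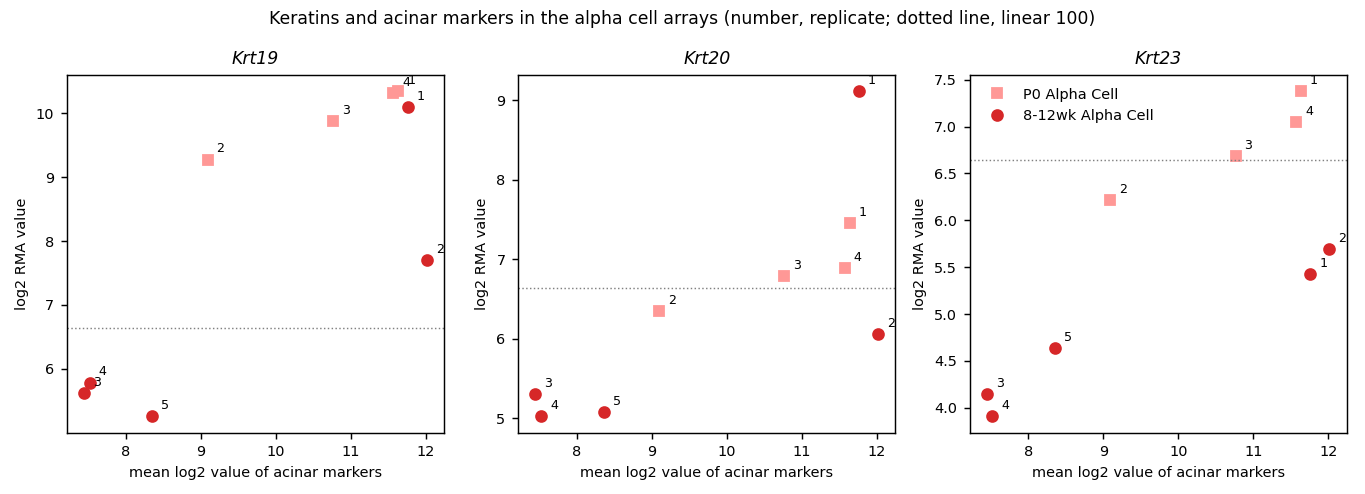
Log2 RMA value of Krt19, Krt20 and Krt23 (vertical axes, which differ) against the mean log2 level of 13 acinar markers (horizontal axis) in each P0 (squares) and 8-12wk (circles) Alpha Cell array, with the replicate number beside each and a dotted line at 100 on the linear scale. Adult replicates 1 and 2 lie at the right with acinar means of 11.76 and 12.02, and the other 3 adult arrays lie at 8.35 or less.

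The change from P0 to 8-12wk differed between alpha and beta cells for 5 of 8 keratins, tested as an interaction, where 20.7% of all probes were called (9.79% higher and 10.9% lower). Krt17 rose by 2.71 in Beta Cells and differed by -0.08 in Alpha Cells, a difference of -2.79 ± 0.32 (adjusted p = 1.31e-08). Krt19 differed by -0.25 in Beta Cells and by -3.06 in Alpha Cells (difference -2.82 ± 0.76, adjusted p = 0.00350), and Krt23 by -0.15 and -2.07 (difference -1.92 ± 0.47, adjusted p = 0.00152). Krt7 and Krt14 went the other way. Krt7 differed by -0.44 in Beta and 0.64 in Alpha Cells (difference 1.07 ± 0.20, adjusted p = 7.16e-05), and Krt14 by -1.29 and 0.60 (difference 1.89 ± 0.31, adjusted p = 1.01e-05). The Krt7 difference was 0.96 without P0 Beta Cell replicate 1 and 0.95 without 8-12wk Alpha Cell replicates 1 and 2, under the size limit in both cases. Fitted on the 4 populations alone, that of Krt19 had an adjusted p of 0.0799. The same interaction was negative and called for 14 of 14 macrophage and leukocyte markers (median -3.20) and 7 of 12 duct markers (median -1.91), as for Krt17, Krt19 and Krt23, and positive and called for 6 of 8 mesothelial markers (median 2.63), as for Krt7 and Krt14, and the part of these lists was not tested.

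The 8-12wk Duct Cells, with the highest means of 5 keratins, were set against both progenitor stages and both adult endocrine cells. Krt17 measured 13.37, 13.32, 13.64 and 13.55, Krt19 measured 13.88, 13.78, 13.86 and 13.74, and Krt23 measured 11.96, 12.47, 12.48 and 12.52. For all 3 genes every Duct Cell array lay above every other array, and all 12 pairs with the Duct Cells were called. From the E15.5 Progenitors, where 33.4% of all probes were called (16.1% higher and 17.4% lower), Krt17 rose by 7.21 ± 0.24 (adjusted p = 1.25e-24), Krt23 by 3.97 ± 0.35 (adjusted p = 2.54e-12) and Krt19 by 1.77 ± 0.57 (adjusted p = 0.00763). Krt8 and Krt18 differed by 0.61 each, under the size limit.

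From the E11.5 Sox9 cells, where 39.4% of all probes were called (17.2% higher and 22.3% lower), 5 keratins rose, Krt23 by 5.35 ± 0.33 (adjusted p = 2.83e-17), Krt19 by 3.48 ± 0.53 (adjusted p = 3.07e-07), Krt18 by 1.48 ± 0.10 (adjusted p = 9.16e-16), Krt8 by 1.16 ± 0.10 (adjusted p = 5.98e-13), and Krt17 from under the floor. Krt20 was the 1 keratin that fell, from 7.03, 7.11, 6.85 and 6.94 to 4.67, 5.91, 5.78 and 5.95, by 1.40 ± 0.50 (adjusted p = 0.0126), and without Duct Cell replicate 1 by 1.10 (adjusted p = 0.0666). Against 8-12wk Beta Cells, where 32.3% of all probes were called (16.4% higher and 15.9% lower), and 8-12wk Alpha Cells, where 37.5% were (19.9% higher and 17.6% lower), the same 5 keratins (Krt8, Krt17, Krt18, Krt19 and Krt23) were higher in the Duct Cells. Above the Beta Cells Krt23 stood by 4.90 ± 0.33 (adjusted p = 5.23e-16), Krt17 by 4.45 ± 0.22 (adjusted p = 5.79e-20) and Krt18 by 1.07 ± 0.10 (adjusted p = 1.05e-11), the last by 0.997 without 8-12wk Beta Cell replicate 4. Above the Alpha Cells Krt17 stood by 8.82 ± 0.21 (adjusted p = 1.82e-30), Krt23 by 7.60 ± 0.31 (adjusted p = 6.18e-23) and Krt19 by 6.92 ± 0.50 (adjusted p = 2.42e-15). Krt7, a keratin of ducts, did not differ past the test from either, by 0.10 and -0.13. The median difference of the 8 keratins was 1.24 against Beta and 1.57 against Alpha Cells, beside -0.01 and -0.07 over all probes. The Duct Cell arrays had acinar marker means of 12.48 to 13.17, close to those of the 8-12wk Beta Cells (12.11 to 12.89), and their macrophage and leukocyte markers, given above, overlapped those of the Beta Cells and exceeded those of the 8-12wk Alpha Cells (5.59 to 6.10). Their part in the keratin values was not tested.

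In the order of the 13 means, few neighbours could be told apart. Of the 12 neighbouring pairs, 3 differed for Krt17 (Duct over 8-12wk Beta, 8-12wk Beta over P0 Beta, and E15.5 Progenitor over Neurog3-null), 2 each for Krt7, Krt18, Krt19 and Krt23, 1 each for Krt8 and Krt14, and none for Krt20 at an adjusted p under 0.05. For Krt19 the 2 steps were the top, Duct Cells over E15.5 Progenitors, and the bottom, P0 over 8-12wk Alpha Cells. The 10 steps between did not differ at that limit. The Krt19 errors come from 1 spread shared by all populations, which takes in the 8-12wk Alpha Cells (SD 2.03). For the fall of Krt19 in Alpha Cells the error was 0.50 with all arrays and 0.28 without 8-12wk Alpha Cell replicates 1 and 2. The Krt20 errors take in those Alpha Cells too (SD 1.73). For the same step its error was 0.47 with all arrays and 0.33 without the same replicates. From E17.5 to P0 Beta Cells Krt20 differed by 1.54 ± 0.57 (adjusted p = 0.0655), not called, with no overlap of arrays. For Krt14 the P0 Beta Cells stood 0.94 ± 0.22 (adjusted p = 4.09e-04) above the next population.

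Among the other keratin genes of the array, 40 had a probe of their own, 25 of which never exceeded the floor, and 15 were tested. Krt80, a type II keratin, was the one called upward in Duct Cells against each of the 4 reference populations. It measured 12.45 ± 0.12 in Duct Cells (SD, n = 4) and 8.33 ± 0.21 in 8-12wk Beta Cells (SD, n = 4), a difference of 4.13 ± 0.28 (adjusted p = 5.63e-16). Krt1, known from the upper epidermis, was highest in the 8-12wk Alpha Cells, at 9.30 ± 0.20 (SD, n = 5), and was higher there than in 8-12wk Beta Cells by 1.32 ± 0.18 (adjusted p = 1.06e-07). Krt222 rose in Alpha Cells from P0 to 8-12wk by 1.60 ± 0.25 (adjusted p = 1.16e-06). Krt10, the usual partner of Krt1, was lowest in the Duct Cells at 6.47 ± 0.59 (SD, n = 4).

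Desmosome and plakin genes, whose products anchor keratin filaments, were counted over 13 tested members. Against 8-12wk Alpha Cells 10 were higher in Duct Cells and 1 lower, with a median difference of 1.78 against -0.07 over all probes, of which 19.9% were higher and 17.6% lower. Dsc2, a desmosomal cadherin, differed by 2.97 and Ppl, periplakin, by 2.67. Against 8-12wk Beta Cells 8 were higher and 1 lower, where 16.4% of all probes were higher and 15.9% lower. The median was 1.30 against -0.01 over all probes, with Ppl at 2.56 and Eppk1, epiplakin, at 2.44. Along the beta cell stages 4 of the 13 were called from P0 to P15, where 25.5% of all probes were, and at most 2 at any other step. In the interaction of age with alpha against beta cells 6 were called, all with a lower change in Alpha than in Beta Cells, where 10.9% of all probes were called that way, among them Dsp, desmoplakin, by -1.94 and Perp by -1.81.

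The other intermediate filament genes were counted over 12 tested members. Against 8-12wk Alpha Cells 3 were higher in Duct Cells and 2 lower, near the 37.5% called over all probes. Vim, vimentin, stood 5.90 higher, and the neuronal filament genes Ina and Nefm stood lower by 6.26 and 4.74. From P0 to P15 in Beta Cells 7 were lower and 1 higher, where 14.5% of all probes were lower and 11% higher, Vim falling by 5.42. Of 14 tested epithelial transcription factors, 7 were higher and 1 lower in Duct than in 8-12wk Alpha Cells (median difference 1.39), where 19.9% of all probes were higher and 17.6% lower, led by Ehf, an Ets factor, by 3.78 and Ovol1 by 3.29. Of the basal and squamous markers, 6 were tested. Among them Lgals7 differed by 2.81 from E15.5 to E17.5 Beta Cells and by -2.04 from P0 to P15, both called. From P0 Beta to P0 Alpha Cells Lgals7 differed by -1.76, and in the interaction of age with alpha against beta cells by 1.95, both called. Trp63, the basal cell factor, looked up after its values were seen, measured 4.93 ± 0.16 (SD, n = 3) in P0 Beta Cells and 5.24 ± 0.17 (SD, n = 4) in Duct Cells, both under the floor, and its highest mean, 8.79 ± 1.04 (SD, n = 3), was that of the E15.5 Acinar cells. Sprr1a, a squamous envelope gene, was higher in Duct than in 8-12wk Beta Cells by 4.72, as were Sfn by 2.59 and Krt15 by 1.05. In that comparison 16.4% of all probes were higher and 15.9% lower. Sprr1a and Sfn were also called higher in Duct Cells than in both progenitor stages. Trp63 was called lower there, by a difference of -1.18 from the E15.5 Progenitors and -3.17 from the E11.5 Sox9 cells.

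The genes whose 13 population means were most like each keratin's, by Pearson's r among 14484 other genes that share the same arrays, were as follows. For Krt17 they were Cyp4f14 (r = 0.98), Neurl3 and Mmp13 (0.97 each), and for Krt23 Tcaf2 (0.95), Trpv4 (0.94) and Serpinb6b (0.93). For Krt18 they were Cited4 (0.95), Osgin1 (0.93) and Fstl3 (0.91), for Krt8 Slc45a3 (0.91), Arhgef10l and 2610307P16Rik (0.90 each) and for Krt19 Abtb2 (0.91), Mapkapk2 (0.90) and Lrrfip1 (0.89). For Krt14 Lypd8 and Anxa8 (0.96 each) and Lmod1 (0.94) stood first, for Krt7 Chd3 (0.88), Stk36 and Klc3 (0.86 each), and for Krt20 2810408A11Rik (0.87), Fancc and Akr1c18 (0.84 each). No keratin had another of the 8 among its 3 nearest genes.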

How the data were processed

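RNA from 48 sorted pools was purified with PicoPure columns and amplified with NuGEN chemistry before hybridisation. The authors deposited log2 values made by RMA (the submitters' processing notes name RMA and R 2.11.1), for 45101 probes on 48 arrays; array medians lay between 6.58 and 6.88. Of the probes, 34958 carried 1 gene, 932 several and 9211 none in the platform annotation, which can be old.

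The deposited log2 values were fitted with limma 3.58.1 in R 4.3.3, with 1 mean per population over all 48 arrays (35 residual degrees of freedom) and no covariate. Probes above 100 on the linear scale in at least 1 array were tested, and calls needed a log2 difference of at least 1 with an adjusted p (Benjamini-Hochberg) under 0.05. The study's methods use a t-test with the same limits, tried here as an alternative. The fit was tested on simulated data. P-values measure the spread between these arrays.

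Samples were grouped by title. Other alternatives were a fit on the populations compared, renewed quantile normalization, no filter, a filter on 24 arrays, array weights, the second brightest probe, a replicate block and leaving out each array. All 8 keratins were named, with up to 4 genes of each list by size of difference and the 3 genes most like each keratin. Members and lists were chosen with earlier results of these data known. Replicate numbers were checked for pairing in 17 comparisons. In 1 of them, E11.5 Sox9 to E15.5 Progenitor, every pair deviated together (r from 0.11 to 0.15 over 3 pairs). Some list genes were not analysed here.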

Additional observations from a re-analysis of the deposited data

Results flagged for a closer look

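In 6 of the 64 sets of arrays examined (1 keratin in 1 population of 4 or 5 arrays), the most extreme array stood apart from the others by Dixon's test, which chance alone does in about 1 set in 20. Krt20 in 8-12wk Alpha Cell replicate 1 measured 9.12, with the others between 5.03 and 6.06. Krt17 in 8-12wk Beta Cell replicate 4 measured 8.58 (others 9.12 to 9.20), and Krt14 in the same array 5.86 (others 5.38 to 5.45). Krt20 in 8-12wk Duct Cell replicate 1 measured 4.67 (others 5.78 to 5.95), and Krt23 in the same array 11.96 (others 12.47 to 12.52). Krt14 in E15.5 Beta Cell replicate 3 measured 4.78 (others 5.20 to 5.27).

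The change from P0 to 8-12wk differed between Alpha and Beta Cells, by limma's interaction test, for 5 keratins. The log2 difference, alpha minus beta, was 1.07 for Krt7, 1.89 for Krt14, -2.79 for Krt17, -2.82 for Krt19 and -1.92 for Krt23.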

How the results depend on the processing

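No called difference of a keratin changed direction under any alternative run. A new quantile normalization, no filter and the replicate block left each of the 18 counts of called keratins within 1.5 times its value. Of single calls, the new normalization lost Krt23 from Progenitors to Acinar cells (-0.95) and Krt14 from E17.5 to P0 (0.90), no filter lost the same Krt23 call (adjusted p = 0.0506) and Krt20 from Endocrine Progenitors to Neurog3-null cells (adjusted p = 0.0583), and array weights lost that Krt23 call (-0.96). The block, including the paired step from E11.5 to E15.5 Progenitors where it again called 3, changed none of the 54 single calls. The methods' t-test called 0 keratins from E17.5 to P0 Beta Cells and 1 from P0 to 8-12wk Alpha Cells. Fitted on the populations compared only, limma called 2 from Endocrine Progenitors to E15.5 Beta Cells and 1 from E17.5 to P0, and with array weights 2 on the first of these steps. With probes above the floor in 24 arrays or more (5 keratins tested), 1 was called at each of E17.5 to P0, P0 to P15, P15 to 8-12wk Beta Cells and P0 Beta to Alpha Cells. In that run 0 were called from Progenitors to Neurog3-null cells and 3 in the difference of maturation. The run with the second brightest probe (6 tested) gave the same counts there, but it tried another probe for Krt8 alone. Krt7, Krt18, Krt19, Krt20 and Krt23 have 1 probe each, which was used again. The second probes of Krt14 and Krt17 never exceeded the floor. Fewer keratins were tested in both runs by construction. Leaving out 1 array gave 0 to 1 from Endocrine Progenitors to E15.5 Beta Cells and 0 to 2 from Progenitors to Neurog3-null cells. The other counts stayed within 1.5 times, while 11 of the 54 single calls were lost without at least 1 array, as given beside their values. Krt14, Krt17 and Krt20 lay under the floor in most arrays, which limits what their differences in size can show.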
